A study of Homo sapiens with 10 samples.

Results

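Collagen genes were taken from the deposited expression table as every symbol made of COL, a number, A and a number, which leaves out antisense genes and pseudogenes. The rule found 44 genes among 60642 symbols, and their levels were compared across 5 human prostate cancer cell lines. Each line was profiled by bulk RNA-seq of polyA-enriched, strand-specific libraries as 2 biological repeats, 10 samples in all. The lines were LNCaP (from a lymph node metastasis), DUCAP and VCAP (from the dura and a vertebra of the same patient), DU145 (from a brain metastasis) and PC3 (from a bone metastasis). None carried a treatment, and all were grown in phenol-red free RPMI with fetal bovine serum and harvested in exponential growth. Each line stands for the tumor of 1 patient, and the repeats are cultures of that line, so the p-values below speak of these cultures and not of prostate cancer at large.

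Collagens are extracellular proteins built from chains that wind into a triple helix, and the COL genes encode the chains. Fibrillar types form the fibers of connective tissue and are secreted mostly by fibroblasts, type IV forms the sheet of basement membranes under epithelia, type VI forms beaded filaments around cells, and transmembrane types sit in the cell surface. A helix built from the chains of different genes needs those chains in the same cell. Enzymes hydroxylate and fold the chains, and extracellular proteases and oxidases trim and cross-link them.

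Values are TPM, the abundance of a gene's transcripts scaled by transcript length to a fixed total per sample, so levels can be compared between genes within a sample. The deposited columns summed to between 982880 and 991998, and the mitochondrial genes took between 12.7 and 36.0% of them. TPM do not keep the number of reads, and the methods give the sequencing yield only as a range over samples. The labelled origin was checked with 7 prostate marker genes, which summed to between 3182 and 9040 TPM in LNCaP, DUCAP and VCAP, to 13.0 and 12 in DU145 and to 354 and 567 in PC3. In PC3 most of this sum was HOXB13 (328 and 502 TPM), while KLK3, which encodes prostate-specific antigen, stayed under 1 TPM in PC3 and DU145. The 6 fibroblast markers summed to between 0.34 and 6.17 TPM per sample, highest in VCAP through LUM (5.35 and 5.12), to 2.14 and 2.28 in PC3 and to 0.34 and 0.41 in DU145. Of these 6, PDGFRA was highest in PC3 (0.89 and 1.1 TPM, at most 0.27 elsewhere), DCN was at 0.26 and 0.43 in PC3 and at 0.10 and 0.79 in VCAP and listed at 0 in the other lines, PDGFRB was at most 0.60, THY1 0.10 and FAP 0.07. The 4 endothelial markers summed to 4.95 and 4.64 TPM in PC3, mostly KDR (4.52 and 4.28, at most 0.17 elsewhere), to 5.46 and 4.22 in LNCaP, almost all VWF, and to at most 0.64 in the other samples. The 3 blood cell markers summed to at most 1.43 TPM. Their part in the collagen levels was not tested.

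The type IV genes form pairs that lie head to head on opposite strands in the genome (RefSeq, GRCh38.p14), with a short stretch between their starts. The stretches are shown because the members of these pairs differed in how far their levels went together. COL4A1 (13:110148963-110307157) and COL4A2 (13:110307284-110513209) are 126 bases apart, COL4A4 (2:226967360-227164488) and COL4A3 (2:227164624-227314792) 135 bases, and COL4A6 (X:108155614-108439458) and COL4A5 (X:108439838-108697545) 379 bases, of which the 250 next to COL4A5 are printed. Each is given 5′ to 3′ on the plus strand, at chr13:110307158-110307283, chr2:227164489-227164623 and chrX:108439588-108439837, with GC boxes (GGGCGG) and CCAAT boxes (CCAAT), on either strand, in capitals.
COL4A1 and COL4A2: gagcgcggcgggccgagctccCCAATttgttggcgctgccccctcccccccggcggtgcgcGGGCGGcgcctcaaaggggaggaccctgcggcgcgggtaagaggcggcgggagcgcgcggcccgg
COL4A4 and COL4A3: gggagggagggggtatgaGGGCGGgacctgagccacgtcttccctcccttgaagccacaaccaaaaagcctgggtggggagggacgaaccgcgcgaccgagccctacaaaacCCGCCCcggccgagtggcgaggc
COL4A6 and COL4A5: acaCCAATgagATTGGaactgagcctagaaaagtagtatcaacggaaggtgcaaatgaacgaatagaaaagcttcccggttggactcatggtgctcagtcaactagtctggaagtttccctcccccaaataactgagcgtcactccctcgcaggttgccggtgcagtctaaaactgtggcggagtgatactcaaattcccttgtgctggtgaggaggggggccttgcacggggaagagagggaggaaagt

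The COL4A1 and COL4A2 stretch held 1 GC box and 1 CCAAT box at 80.2% GC. Of 35116 RefSeq promoters cut to the same 126 bases, 34.6% held a GC box and 21.1% a CCAAT box, at a median of 60.3% GC. The COL4A4 and COL4A3 stretch held 2 GC boxes and no CCAAT box at 68.1% GC, where 35.5% of promoters of 135 bases held a GC box. The printed part of the COL4A6 and COL4A5 stretch held 2 CCAAT boxes and no GC box at 51.2% GC, where 32% of promoters of 250 bases held a CCAAT box. The rest of that stretch was not searched. None of the printed sequences held the TATA box letters TATAAA, which 5.87 to 10.7% of promoters of these lengths did. These matches describe letters and do not show binding.

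Most collagen RNA was in PC3. The 44 genes summed to 143 and 164 TPM (LNCaP), 41.7 and 42.8 (DUCAP), 84.1 and 48.8 (VCAP), 368 and 207 (DU145), and 2095 and 3180 (PC3). The samples of DU145 and PC3 all lay above the 6 others, and those of PC3 lay far above DU145. In bulk samples fewer cells of a kind and less RNA per cell cannot be told apart. As a share of the whole column this was 0.213 and 0.323% in PC3 and 0.00420 and 0.00431% in DUCAP, the lowest line. COL6A1 and COL6A2, chains of the type VI filament, made up 81.3 and 83.4% of the collagen TPM in PC3. Without the type VI genes the sum was 433 ± 85.1 TPM (SD, n = 2) in PC3, 144.9 ± 37.9 in DU145, 60.6 ± 1.88 in LNCaP, 47.9 ± 17.5 in VCAP and 36.0 ± 0.198 in DUCAP, so the order of the line means was as before. The repeats did not set VCAP (60.25 and 35.55 TPM) apart from LNCaP (59.31 and 61.97) or DUCAP (36.1 and 35.82). This order is that of unscaled TPM. Median-ratio factors, each sample's median ratio over genes to the mean of all samples, were 1.21 and 1.20 in LNCaP. They were 0.827 and 0.817 in VCAP and 0.670 and 0.743 in DUCAP. Divided by them, the repeats of LNCaP, VCAP and DUCAP overlapped for this sum.

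**Figure D1:**
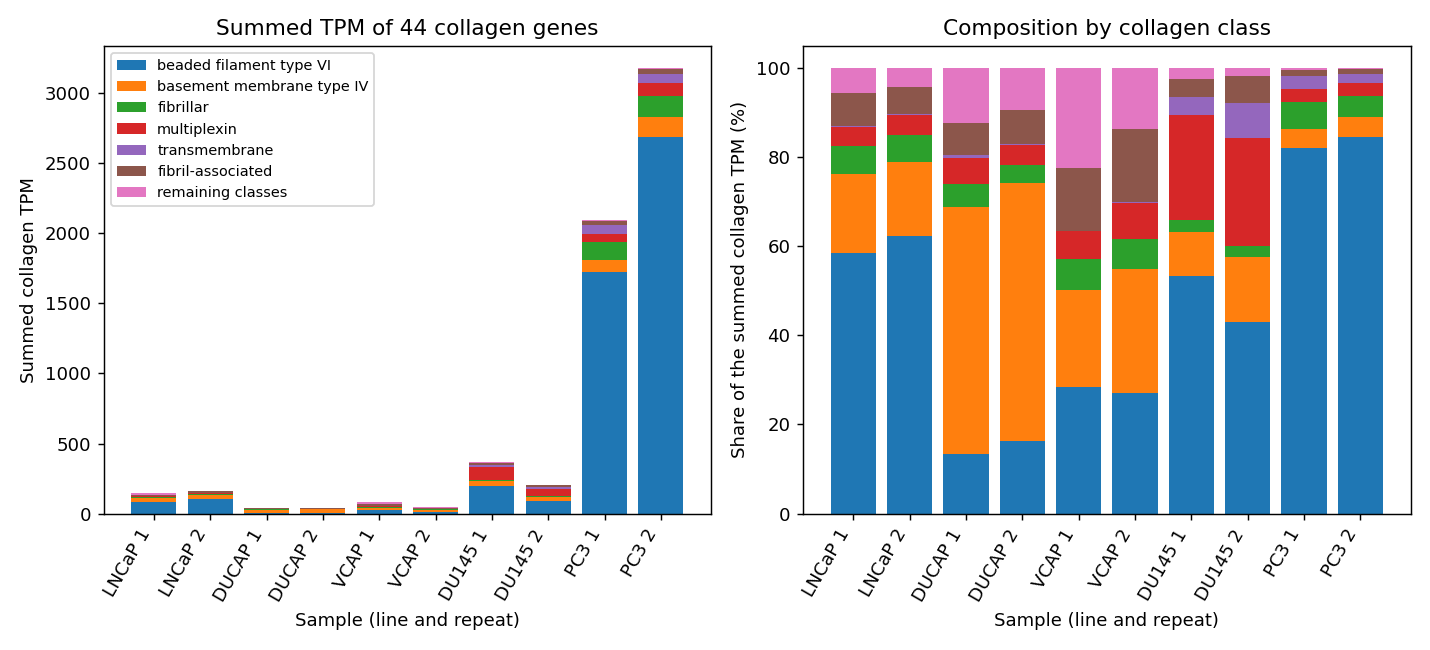
Left, summed TPM of the 44 collagen genes in each of the 10 samples, stacked by collagen class. Right, the same as a share of each sample's collagen TPM, in percent. Type VI fills over 80% of both PC3 columns, and type IV is the largest class in both DUCAP columns.

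The remaining composition differed by line. Type IV chains summed to 24.0 ± 1.15 TPM in DUCAP (SD, n = 2), more than the 6.25 ± 0.976 of its type VI chains, and to 115 ± 39.8 in PC3. Fibrillar chains summed to 141 ± 18.3 TPM in PC3 and to between 1.96 and 9.34, as line means, in the other 4 lines. COL18A1 alone gave the multiplexin class 68.7 ± 26.1 TPM in DU145, a mean near those of COL6A1 (68.0 ± 35.7) and COL6A2 (74.4 ± 40.0) in that line and within their spread. Transmembrane chains were near 0 in LNCaP, DUCAP and VCAP (0.455, 0.175 and 0.115 TPM) and reached 15.7 ± 1.05 in DU145 and 65.3 ± 5.95 in PC3.

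Not every member was expressed. COL10A1, COL11A1, COL19A1 and COL6A6 were listed at 0 in all samples, and 10 more stayed above 0 but under 1 TPM (COL15A1, COL1A2, COL20A1, COL22A1, COL23A1, COL24A1, COL25A1, COL5A3, COL6A5 and COL9A1). COL14A1 and COL4A3 reached 1 TPM in 1 sample only. The other 28 had at least 1 TPM in at least 2 samples and entered the tests. By line means, 23 members were at 1 TPM or more in PC3, 17 in DU145, 13 in VCAP, 12 in LNCaP and 7 in DUCAP, and 3 (COL18A1, COL4A2 and COL6A1) were so in all 10 samples. PC3 was the highest line for 22 of the 40 members with any value, VCAP for 8, DU145 for 6, LNCaP for 3 and DUCAP for 1, COL4A6.

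**Figure D2:**
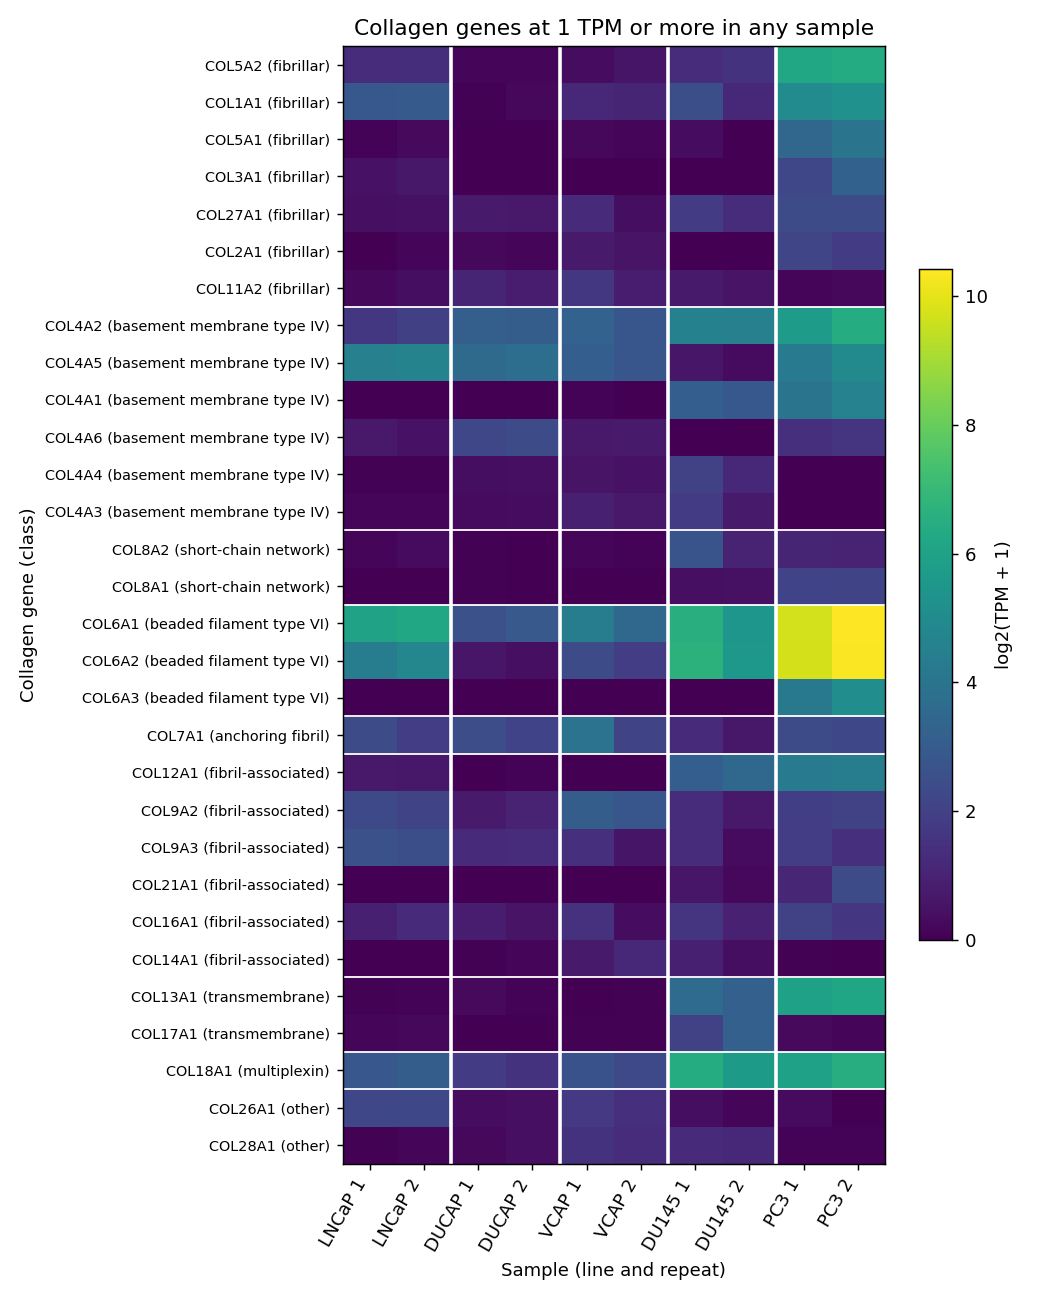
Levels of the 30 collagen genes with at least 1 TPM in any sample, as log2(TPM + 1), with genes in rows grouped by class and the 10 samples in columns. COL6A1 and COL6A2 are brightest in both PC3 samples, and COL17A1, COL4A3 and COL4A4 are brightest in DU145.

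Tests were run with limma on log2(TPM + 1) of all 17520 genes that passed the same filter, and a gene was called at a Benjamini-Hochberg adjusted p under 0.05 over all of them. Of the 28 members tested, 27 differed among the 5 lines by the F test, and COL16A1 did not (adjusted p = 0.0998). Most genes differed between these lines, since 90.8% of all tested genes were called. In addition, 8 of the 28 passed the filter through 1 line alone, 6 through PC3 (COL21A1, COL2A1, COL3A1, COL5A1, COL6A3 and COL8A1) and 2 through DU145 (COL17A1 and COL4A4), and such genes had to differ. Likewise 12 of the 28 reached 1 TPM only in samples of DU145 and PC3 (those 8 and COL12A1, COL13A1, COL4A1 and COL8A2), against 9.5% of all tested genes, and COL11A2 and COL26A1 only in samples of the other lines, so the direction between these groups was set for them by the filter. The counts below describe the members and carry no weight as a test of the family.

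DU145 and PC3 were first compared with LNCaP, DUCAP and VCAP, the lines with the highest sums of prostate markers. Of the 28 tested members 25 were called, against 74.4% of all tested genes. Of these 20 were higher in DU145 and PC3 (51.9% of all tested genes) and 5 were lower (22.5%), while COL11A2, COL28A1 and COL9A3 were not called. The median difference of the 28 was 1.29 in log2 units, against 0.40 for all tested genes. With quantile normalization, which moved the median of all genes to -0.08, 18 members were higher and 8 lower, and with median-ratio scaling (median 0.02) 18 were higher and 7 lower. For 10 members all 4 samples of DU145 and PC3 lay above all 6 others, against 19.8% of all tested genes (COL12A1, COL13A1, COL18A1, COL21A1, COL27A1, COL4A1, COL4A2, COL6A2, COL8A1 and COL8A2), and for none did all 4 lie below, against 6.92%.

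This average hides a difference between DU145 and PC3. In a split made after the values were seen, PC3 alone had 20 members higher than LNCaP, DUCAP and VCAP and 3 lower (46.8 and 22.8% of all tested genes), and DU145 alone had 14 higher and 7 lower (45.5 and 21.5%). COL4A5, COL4A6 and COL2A1 were called higher in PC3 and lower in DU145, and COL28A1 the reverse. COL1A1, COL3A1, COL5A1, COL6A3, COL16A1 and COL21A1 were called higher in PC3 and were not called in DU145, and of these all but COL16A1 also differed between DU145 and PC3 in a direct comparison. Compared directly, 21 of the 28 differed between DU145 and PC3, against 49.3% of all tested genes. In DU145 18 were lower (25.5% of all tested genes), 3 were higher (COL17A1, COL4A4 and COL28A1, against 23.8%), and 7 were not called. Here and in the split the filter had set the direction for the 6 members that passed it through PC3 alone, higher in PC3. It had also set it for COL17A1 and COL4A4, which passed it through DU145 alone. In the split the direction was set as well for COL12A1, COL13A1, COL4A1 and COL8A2, higher in each line. They were at 1 TPM or more in every sample of DU145 and PC3 and in no other. The median of the 28 was -1.36 in log2 units, against 0.00 for all tested genes.

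**Figure D3:**
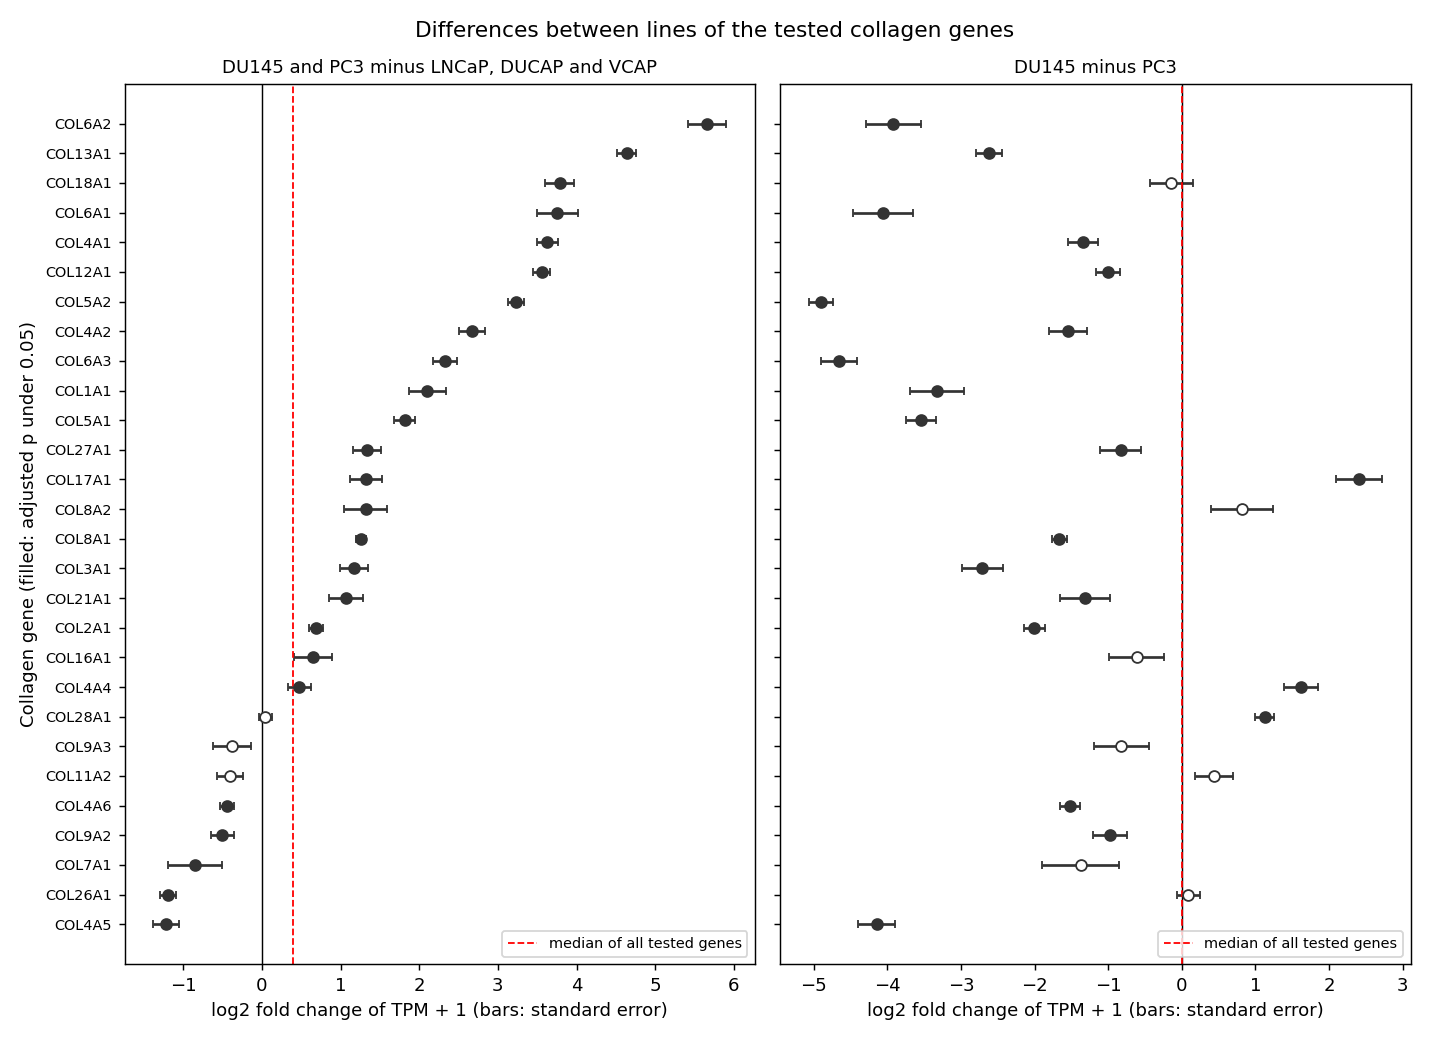
Log2 fold change of TPM + 1 (x axis, bars: standard error) of the 28 tested collagen genes (rows), for DU145 and PC3 minus LNCaP, DUCAP and VCAP on the left and DU145 minus PC3 on the right. Filled points passed an adjusted p of 0.05, and the dashed line is the median of all tested genes, 0.40 on the left and 0.00 on the right. COL6A2 and COL13A1 lead on the left, and 18 filled points lie left of 0 on the right.

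Type VI chains had the highest levels in PC3, and in LNCaP COL6A1 was the highest member as well, whereas COL4A5 was highest in DUCAP and COL18A1 in the second DU145 repeat. COL6A1 (21:45981770-46005048) measured 63.5 and 75.3 TPM (LNCaP), 5.02 and 6.61 (DUCAP), 19.5 and 10.5 (VCAP), 93.2 and 42.8 (DU145), and 841 and 1361 (PC3). COL6A2, which follows it on chromosome 21 (21:46098112-46132848), measured 20.4 and 27.1, 0.54 and 0.33, 4.40 and 2.71, 103 and 46.2, and 863 and 1292 TPM in the same order. PC3 stood above the other lines for both, and for COL6A1 the DU145 repeats lay on either side of the LNCaP repeats. DU145 and PC3 together exceeded the other lines by 3.76 log2 units for COL6A1 (SE 0.27, adjusted p = 3.56e-06 by limma) and by 5.66 for COL6A2 (SE 0.24, adjusted p = 2.36e-07). In the order of line means, neighbouring lines all differed for COL6A2, whereas for COL6A1 LNCaP and DU145 did not (adjusted p = 0.82), nor VCAP and DUCAP (adjusted p = 0.085).

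The third chain of the filament was near 0 outside PC3. COL6A3 measured 0.01 and 0.02 TPM (LNCaP), 0 and 0 (DUCAP), 0 and 0.01 (VCAP), 0.01 and 0 (DU145), and 17.7 and 33.3 (PC3). The difference DU145 minus PC3 was -4.66 log2 units (SE 0.24, adjusted p = 2.04e-06 by limma), and among the other 4 lines no neighbours in level differed. The balance of the first and second chains also differed by line, as a description with no test. COL6A1 stood at 0.908 to 1.05 times COL6A2 in the 4 samples of DU145 and PC3 and at 2.78 to 20.0 times in the 6 others, the highest of which rests on a COL6A2 level of 0.33 TPM. In PC3 COL6A1 was 47.4 and 40.9 times COL6A3. The remaining type VI genes of the table, COL6A5 and COL6A6, reached at most 0.01 TPM.

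Type IV chains split by gene pair. COL4A2 measured 2.21 and 2.87 TPM (LNCaP), 7.90 and 7.38 (DUCAP), 8.55 and 5.92 (VCAP), 22.7 and 21.9 (DU145), and 51.9 and 87.3 (PC3). Its partner COL4A1 was listed at 0 in all samples of LNCaP and DUCAP, at 0.06 and 0 in VCAP, at 7.54 and 6.21 in DU145, and at 15.1 and 23.5 in PC3. So COL4A2 exceeded 1 TPM in all 10 samples and COL4A1 in the 4 of DU145 and PC3, where it stood at 0.332 and 0.284 of COL4A2 in DU145 and at 0.292 and 0.269 in PC3. DU145 and PC3 exceeded the other lines by 3.63 log2 units for COL4A1 (SE 0.13, adjusted p = 8.63e-08 by limma) and by 2.67 for COL4A2 (SE 0.17, adjusted p = 1.77e-06). The COL4A1 value depends on the pseudocount of 1, since the group it is compared with is at or near 0, and was 6.73 with a pseudocount of 0.1. Of the 64 differences of named genes, 29 moved by over 1.5 times or changed sign with that pseudocount, mostly those of genes near 0 in a group. The difference LNCaP minus DUCAP and VCAP was -1.25 log2 units for COL4A2 (SE 0.22, adjusted p = 0.0013).

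COL4A5 and COL4A6, chains of basement membranes such as those of kidney and smooth muscle, went the other way in DU145. COL4A5 measured 22.4 and 23.9 TPM (LNCaP), 11.1 and 12.6 (DUCAP), 7.66 and 5.83 (VCAP), 0.53 and 0.22 (DU145), and 17.8 and 30.0 (PC3). COL4A6 measured 0.65 and 0.41, 3.60 and 4.19, 0.66 and 0.68, 0.01 and 0, and 1.73 and 2.03 TPM in the same order. DU145 was lowest for both genes, below every sample of the other lines, while the highest line was PC3 or LNCaP for COL4A5 (which the test did not tell apart, adjusted p = 1 by limma) and DUCAP for COL4A6. The difference DU145 minus PC3 was -4.14 log2 units for COL4A5 (SE 0.25, adjusted p = 5.23e-06) and -1.52 for COL4A6 (SE 0.14, adjusted p = 4.59e-05). The ratio of COL4A5 to COL4A6 was 3.08 and 3 (DUCAP), 11.6 and 8.57 (VCAP), 10.3 and 14.8 (PC3) and 34.5 and 58.3 (LNCaP), and cannot be read in DU145, where COL4A6 was at 0.01 and 0 TPM.

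The pair COL4A3 and COL4A4, known from the basement membrane of the kidney glomerulus, was low and highest in DU145. COL4A4 measured 0.03 and 0.05 TPM (LNCaP), 0.32 and 0.35 (DUCAP), 0.45 and 0.43 (VCAP), 3.10 and 1.31 (DU145), and 0 and 0 (PC3). COL4A3 measured 0.13 and 0.09, 0.24 and 0.28, 0.89 and 0.65, 2.50 and 0.67, and 0.01 and 0, and was not tested. For COL4A4 both DU145 repeats lay above all other samples, but for COL4A3 the second DU145 repeat lay within the VCAP range. COL4A4 exceeded PC3 by 1.62 log2 units in DU145 (SE 0.23, adjusted p = 0.000549 by limma). Its difference of 0.48 between DU145 with PC3 and the other lines (SE 0.15, adjusted p = 0.0166) lost its call with median-ratio scaling (0.31), quantile normalization (0.15) and a pseudocount of 0.1 (0.53).

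**Figure D4:**
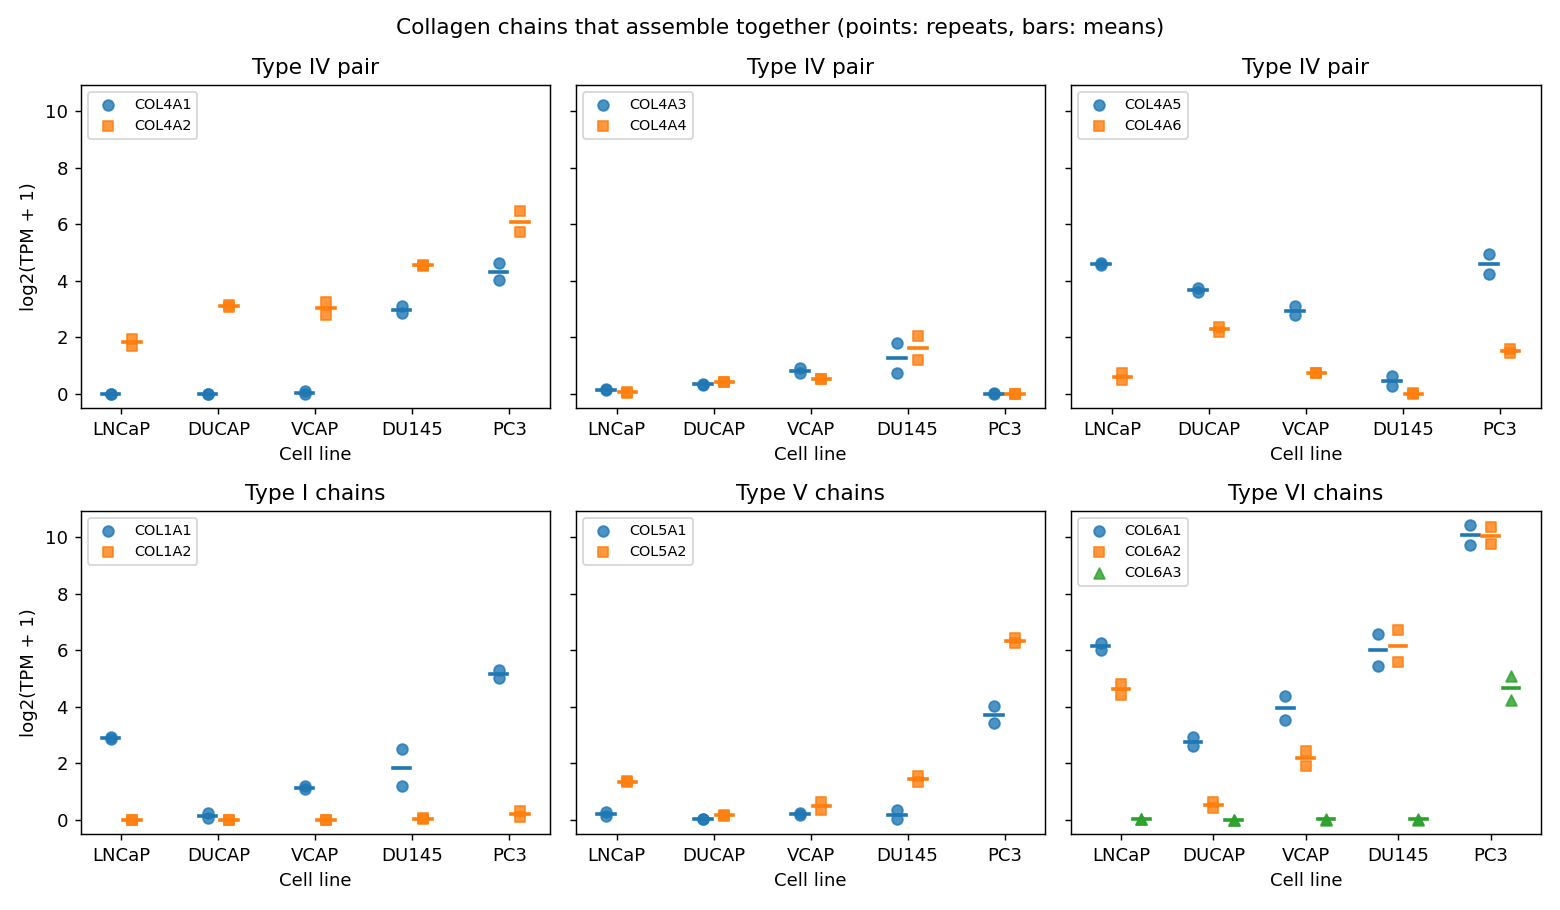
Levels of collagen chains that assemble together, as log2(TPM + 1), by cell line, with points for the 2 repeats and bars for their mean. COL4A1 sits near 0 in LNCaP, DUCAP and VCAP where COL4A2 does not, COL1A2 sits near 0 in all lines, and COL6A3 is above 0.02 TPM in PC3 alone.

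Fibrillar chains were mainly those of PC3. COL5A2 (2:189031898-189441111), a chain of type V collagen that starts fibrils, measured 1.5 and 1.58 TPM (LNCaP), 0.12 and 0.09 (DUCAP), 0.27 and 0.52 (VCAP), 1.51 and 1.90 (DU145), and 74.9 and 84.8 (PC3). COL5A1, its partner chain, measured 0.08 and 0.21, 0.01 and 0.01, 0.16 and 0.11, 0.26 and 0.01, and 9.70 and 15.1 TPM in the same order. The PC3 repeats lay above all other samples for both genes. DU145 minus PC3 gave -4.90 log2 units for COL5A2 (SE 0.16, adjusted p = 2.38e-07 by limma), the largest difference of the 28 tested members in that comparison, and -3.54 for COL5A1 (SE 0.20, adjusted p = 3.4e-06). Neighbouring lines below PC3 did not differ for COL5A1, and for COL5A2 DU145 did not differ from LNCaP (adjusted p = 0.68) while LNCaP exceeded VCAP (adjusted p = 0.00173).

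COL1A1 (17:50184101-50201631), the main chain of type I collagen in bone and skin, measured 6.20 and 6.66 TPM (LNCaP), 0.03 and 0.18 (DUCAP), 1.26 and 1.12 (VCAP), 4.60 and 1.25 (DU145), and 31.5 and 38.0 (PC3). COL1A2, its usual partner, was listed at 0 in the 6 samples of LNCaP, DUCAP and VCAP, at 0.01 and 0.04 in DU145 and at 0.06 and 0.23 in PC3. Both repeats of LNCaP, VCAP, DU145 and PC3 thus had more than 1 TPM of COL1A1, and no sample had more than 0.23 of COL1A2. PC3 exceeded LNCaP, the next line, by 2.26 log2 units (SE 0.36, adjusted p = 0.000816 by limma), LNCaP exceeded DU145 by 1.06 (adjusted p = 0.035), and the lines below did not differ from their neighbours. COL3A1, which lies next to COL5A2 (2:188974373-189012746) and forms reticular fibers, measured 3.61 and 8.45 TPM in PC3, 0.43 and 0.60 in LNCaP and at most 0.02 elsewhere. Of the cartilage chains, COL2A1 reached 3.53 and 2.55 TPM in PC3 and COL11A2 at most 2.24 TPM, in the first VCAP repeat. COL27A1 ranged from 0.31 to 4.37 TPM over all samples.

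Transmembrane chains told DU145 and PC3 apart. COL13A1 (10:69801906-69959144), found at cell adhesions, measured 0.05 and 0.08 TPM (LNCaP), 0.20 and 0.06 (DUCAP), 0 and 0.05 (VCAP), 11.5 and 8.26 (DU145), and 60.9 and 69.4 (PC3). COL17A1 (10:104031286-104085880), a chain of the hemidesmosome that holds epithelial cells to the basement membrane, measured 0.10 and 0.16, 0 and 0, 0.04 and 0.03, 3.03 and 8.13, and 0.20 and 0.09 TPM in the same order. COL13A1 thus exceeded 1 TPM in DU145 and PC3, and COL17A1 in DU145 only. DU145 minus PC3 gave -2.62 log2 units for COL13A1 (SE 0.18, adjusted p = 1.05e-05 by limma) and 2.41 for COL17A1 (SE 0.31, adjusted p = 0.000351). The other members of the class, COL23A1 and COL25A1, reached at most 0.26 TPM.

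COL18A1 (21:45405165-45513720), a basement membrane collagen whose end fragment is endostatin, was high in both DU145 and PC3. It measured 6.05 and 7.47 TPM (LNCaP), 2.46 and 1.87 (DUCAP), 5.15 and 3.96 (VCAP), 87.2 and 50.2 (DU145), and 60.8 and 88.0 (PC3). The 4 samples of DU145 and PC3 overlapped each other and lay above the 6 others by 3.78 log2 units (SE 0.19, adjusted p = 4.86e-07 by limma). DU145 and PC3 differed by -0.14 (SE 0.29, adjusted p = 0.72), which does not show that their levels are equal. COL12A1, which coats fibrils, measured 0.65 and 0.57 TPM (LNCaP), 0.02 and 0.08 (DUCAP), 0.01 and 0 (VCAP), 7.70 and 10.3 (DU145), and 17.9 and 20.0 (PC3). DU145 and PC3 lay above all other samples for it, with a difference of 3.56 log2 units (SE 0.11, adjusted p = 3.26e-08). The short-chain network genes COL8A1 and COL8A2 were lower, COL8A1 at 3.26 and 3.36 TPM in PC3 and at most 0.39 elsewhere, and COL8A2 at 5.46 and 1.06 in DU145, 1.10 and 1.05 in PC3 and at most 0.24 elsewhere. COL21A1 reached 1.16 and 4.13 TPM in PC3 and COL16A1 3.17 and 2.15, and all 10 samples lay between 0.26 and 3.17 for COL16A1.

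A smaller set was higher in LNCaP, DUCAP or VCAP. COL26A1 measured 3.60 and 3.74 TPM (LNCaP), 0.28 and 0.36 (DUCAP), 2.32 and 1.72 (VCAP), 0.29 and 0.10 (DU145), and 0.23 and 0.02 (PC3). Levels in LNCaP and VCAP lay above all other samples, and among DUCAP, DU145 and PC3 no neighbours in level differed. The difference of DU145 and PC3 from the other lines was -1.20 log2 units (SE 0.10, adjusted p = 1.1e-05 by limma). COL9A2, a type IX chain that decorates cartilage fibrils, measured 3.98 and 3.39, 0.68 and 1.02, 7.43 and 5.89, 1.53 and 0.64, and 2.79 and 3.2 TPM in the order of lines above, highest in VCAP. COL9A3, of the same type, was highest in LNCaP at 4.97 and 4.59 TPM. COL7A1, which forms the anchoring fibrils under epithelia, was at 14.6 and 3.34 TPM in the VCAP repeats and between 0.57 and 4.58 elsewhere. It was called lower over DU145 and PC3 together (adjusted p = 0.0485 by limma). Taken alone, DU145 was lower by -1.54 log2 units (adjusted p = 0.0123), while PC3 was not called (-0.17, adjusted p = 0.75). COL28A1 was highest in VCAP (1.91 and 1.49 TPM) and DU145 (1.39 and 1.31), and COL14A1 reached 1.24 TPM in the second VCAP repeat.

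Of LNCaP, DUCAP and VCAP, LNCaP had the highest summed collagen level. Against DUCAP and VCAP, 14 of the 28 tested members were called, against 64.6% of all tested genes, and 8 were called with a difference of at least 2-fold, against 37.6%. In LNCaP 9 were higher (49.2% of all tested genes) and 5 lower (15.5%), with a median of 0.12 in log2 units against 0.46 for all tested genes. With quantile normalization, which set the latter to 0, 8 were higher and 7 lower. The largest differences were COL6A2 at 3.28 (SE 0.33, adjusted p = 4.54e-05 by limma), COL6A1 at 2.78 (SE 0.36, adjusted p = 0.000184) and, in the other direction, COL4A2 at -1.25 and COL4A6 at -0.91 (SE 0.12, adjusted p = 0.000206). COL4A5 was higher in LNCaP by 1.28 (SE 0.22, adjusted p = 0.001), and by 0.67 with median-ratio scaling or quantile normalization (adjusted p = 0.0302 and 0.0257). The call for COL18A1, 0.89 higher in LNCaP (adjusted p = 0.0135), was lost with median-ratio scaling (0.36), quantile normalization (0.29), rescaling without mitochondrial genes (0.69) and without the second LNCaP repeat (0.76).

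DUCAP and VCAP, lines of the same patient, had the fewest called members, 5 of 28, against 18.3% of all tested genes. COL4A6 was higher in DUCAP by 1.55 log2 units (SE 0.14, adjusted p = 0.000194 by limma), the only member of 28 called so, against 4.24% of all tested genes. Lower in DUCAP were COL9A2 at -2.05 (SE 0.23, adjusted p = 0.000751), COL6A2 at -1.65 (SE 0.38, adjusted p = 0.0201), COL26A1 at -1.19 (SE 0.16, adjusted p = 0.00169) and COL28A1 at -1.09 (SE 0.13, adjusted p = 0.000964), 4 members against 14% of all tested genes. With quantile normalization 2 members were higher and 4 lower. The COL6A2 call was lost without either DUCAP repeat (-1.75 and -1.54), without the first VCAP repeat (-1.37) and with no filter on low values (-1.65, adjusted p = 0.0541).

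Genes that process, bind and break down collagen were described from a list of 56, all in the table, of which 46 were tested. Over DU145 and PC3 together 37 of these were higher than in the other lines, beside 51.9% of all tested genes, and 6 lower, beside 22.5%. The other 3 (P4HB, P3H4 and COLGALT1) were not called, and the median of the 46 was 1.49 log2 units. With median-ratio scaling or quantile normalization 33 were higher and 9 lower. Of 18 folding and modification genes 13 were higher and 2 lower. SERPINH1, the chaperone that binds the collagen helix, measured 0.32 and 0.40 TPM (LNCaP), 7.90 and 10.3 (DUCAP), 12.5 and 10.8 (VCAP), 109 and 73.7 (DU145), and 77.5 and 82.2 (PC3), a difference of 3.94 log2 units. PLOD2, a lysyl hydroxylase that prepares cross-links, differed by 4.24 with its highest level in DU145 (267 and 230 TPM), whereas PPIB and FKBP10, prolyl isomerases of the same machinery, were lower over DU145 and PC3 together (-0.85 and -0.75). PPIB measured 719 and 794 TPM (LNCaP), 329.6 and 379 (DUCAP), 562 and 543 (VCAP), 145.32 and 205 (DU145), and 503 and 494 (PC3). FKBP10 measured 152 and 189, 84.8 and 85.0, 83.1 and 56.5, 57.5 and 24.3, and 87.4 and 96.7 TPM in the same order. For both, PC3 lay above DUCAP and below LNCaP in unscaled TPM. The median-ratio factors were 0.670 and 0.743 in DUCAP and 1.28 and 1.22 in PC3. Divided by them, PC3 lay below DUCAP for both genes. DU145 lay below PC3, with DU145 minus PC3 at -1.52 for PPIB (adjusted p = 0.000145 by limma) and at -1.27 for FKBP10 (adjusted p = 0.0176). The pooled values were -1.32 and -1.22 with median-ratio scaling, and that of FKBP10 was -0.45 without the second DU145 repeat and lost its call without the first PC3 repeat (-0.71).

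Export genes gave 5 higher and 1 lower of 6. SEC23A and SEC13, parts of the coat of export vesicles, were higher by 2.07 and 1.42 log2 units, the latter by 0.88 with quantile normalization. MIA3, a receptor that loads collagen into them, gave -0.59, and -1.05 and -1.11 with median-ratio scaling and quantile normalization. It measured 57.8 and 41.6 TPM in DU145, below all other samples, with DU145 minus PC3 at -1.31 (adjusted p = 0.00041 by limma). PC3, at 124 and 123, lay above DUCAP (72.8 and 81.3) and below LNCaP (135 and 159) and VCAP (153 and 134). Divided by the median-ratio factors, MIA3 in PC3 lay below DUCAP as well. Of 7 tested propeptide cleavage genes 5 were higher and 2 lower, led by PCOLCE2 (3.2) and BMP1 (2.74), the C-proteinase, while TLL2 was lower (-0.70). TLL2 reached 1 TPM only in samples of LNCaP and DUCAP, so its direction was set by the filter. ADAMTS3, an N-proteinase, measured 6.88 and 10.3 TPM in VCAP and at most 1.93 elsewhere, and its difference of -0.33 had the opposite sign (0.047) with a pseudocount of 0.1 and was -0.52 and -0.61 with median-ratio scaling and quantile normalization. Of 5 cross-linking oxidases 4 were higher over DU145 and PC3 together and LOXL3 was lower (-0.50, and -0.77 and -0.92 with median-ratio scaling and quantile normalization). LOXL3 was lower through PC3, where it measured 0.15 and 0.28 TPM against 1.25 and 1.65 in DU145. LOXL1, among the 4, was higher through PC3 (117 and 137 TPM). In DU145 it measured 5.05 and 4.06, below DUCAP (10.3 and 8.90) and VCAP (14.5 and 11.7). LOXL2 measured 107 and 105 TPM in DU145, 68.6 and 73.6 in PC3 and at most 1.63 in the other 6 samples, a difference of 5.81 log2 units, and LOXL4 differed by 3.45 with its highest level in PC3 (41.1 and 52.0 TPM).

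Of the 11 receptors listed 6 were tested and of the 7 degradation genes 4. These were called higher over DU145 and PC3 together, beside 51.9% of all tested genes. For ITGA1, ITGA10, DDR1, MMP13 and CTSK the samples of these groups overlapped. DDR1 measured 65.4 and 75.0 TPM in PC3, below the 80.9 and 87.3 of LNCaP. MMP13 measured 0.30 and 0.33 in DU145, below the 0.99 and 1.34 of LNCaP, and 9.30 and 22.6 in PC3. MRC2, MMP1 and MMP14 passed the filter through samples of DU145 and PC3 alone, as LOXL4 and P4HA3 did, so their direction was set by it. ITGB1, the beta subunit of the collagen-binding integrins, measured 1089 and 758 TPM in DU145, 840 and 902 in PC3 and between 77.1 and 176 in the other samples, a difference of 2.99 log2 units. MRC2, an endocytic collagen receptor, measured 35.9 and 11.5 TPM in DU145, 43.8 and 71.0 in PC3 and at most 0.05 elsewhere (5.09 log2 units). MMP14, a membrane-bound collagenase, measured 147 and 97.4 TPM in DU145, 132 and 123 in PC3 and at most 0.35 elsewhere (6.74 log2 units). MMP1, the interstitial collagenase, differed by 2.75, with 1.04 and 2.16 TPM in DU145 and 12.6 and 22.6 in PC3.

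Repeats agreed less in DU145 than in the other lines. Between its repeats 1661 of 17520 tested genes differed by 2-fold or more on the log2(TPM + 1) scale, against 158 to 372 in the other lines, and among the 28 members 6 did so (21.4%, against 9.48% of all tested genes). The first DU145 repeat had the higher level for 22 of the 28, against 8711 of all 17520 tested genes. COL6A1 was among them, at 93.2 against 42.8 TPM, and COL17A1 had the lower level in it, 3.03 against 8.13. In VCAP the first repeat was higher for 22 members as well (7993 of all tested genes), with 2 at 2-fold or more. The second repeat was higher for 18 members in PC3 (6855 of all tested genes), 2 of them at 2-fold or more, and for 20 in LNCaP (8107). Antisense genes of the family stayed low, COL4A2-AS1 at 0.12 to 0.27 TPM in LNCaP, DUCAP and VCAP and at 0 in DU145 and PC3, and COL18A1-AS1 at most at 0.04. The libraries were strand-specific, but whether the quantification used the strand is not stated.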

How the data were processed

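RNA-seq of untreated cells covered 5 prostate cancer lines and 2 biological repeats of each, and the deposited labels gave the groups. According to the methods and the submitters' processing notes, reads were checked with FastQC 0.11.9, trimmed with Trim Galore 0.6.5, aligned to GRCh38 with STAR 2.7.2b and quantified with RSEM 1.3.3, and the authors deposited the RSEM TPM of each sample in 1 table, unfiltered and not pooled. How rows with a shared symbol were merged is not given in the sources used here. TPM keep no depth, and the yield is stated only as a range over samples, so no interval was computed, and the precision rests on 2 repeats per line.

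The 17520 genes that reached 1 TPM in 2 or more samples were tested on log2(TPM + 1) with limma 3.58.1 (R 4.3.3). The fit held all 10 samples and a coefficient for each line, eBayes used a mean-variance trend, and p-values were adjusted by the Benjamini-Hochberg method over all genes tested, with calls at 0.05. A fold change on this scale understates that of low genes. The contrasts between lines (4), an F test and contrasts of lines that are neighbours in level were computed. Values in every sample were given for COL4A1, COL5A1, COL13A1, COL17A1, members with a line mean of at least 10 TPM and the 2 largest called changes in each direction of each contrast. Pathway genes were named by the same rule within each role in the first contrast. Other members named with values were chosen after these were seen. The members, the pathway list and the marker lists were chosen with earlier results of these data known. The steps were tested on simulated data. Coordinates and promoter sequences came from RefSeq (GRCh38.p14), in which 44 of 44 symbols matched. A pseudocount of 0.1, other filters, 3 other scalings, no trend, a fold threshold, the repeat number as a block and each sample left out in turn were tried as alternatives. Contrasts of PC3 and DU145 alone were added after seeing the data. Python 3.11.15, pandas 2.3.3 and matplotlib 3.10.9 were used.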

Additional observations from a re-analysis of the deposited data

How the results depend on the processing

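Counts of called members changed when samples were left out. Against 25 of 28 for DU145 and PC3 minus LNCaP, DUCAP and VCAP, leaving out 1 sample gave 16 to 26, with 16 without the first PC3 repeat, and against 21 for DU145 minus PC3 it gave 13 to 23, with 13 without the second. By construction only 22 members could be tested without a PC3 repeat, because those at 1 TPM in PC3 alone no longer reached 2 samples. For LNCaP minus DUCAP and VCAP the range was 11 to 16 against 14, and a requirement of 2-fold left 8. For DUCAP minus VCAP it was 4 to 8 against 5, with 8 without either DU145 repeat, and a pseudocount of 0.1 also gave 8. The cause of the last 2 was not tested. For the F test the range was 19 to 28 against 27, for the pathway genes 39 to 43 against 43, and for neighbours in level 29 to 35 against 34 of 68.

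Of 1134 values of single genes under the alternatives, 1113 kept their direction and call, 20 lost the call and 1, ADAMTS3 with a pseudocount of 0.1 (0.047), changed sign. Beside those given with the results, COL9A2 lost its call without the first PC3 repeat for DU145 and PC3 minus the other lines (-0.46) and without the second for DU145 minus PC3 (-0.90), and ADAMTS3 lost its call with no filter and without the first DU145, either DUCAP, the second LNCaP or the first PC3 repeat (-0.33 to -0.29). Values moved by over 1.5 times for 10 of 64 differences with median-ratio scaling, 11 with quantile normalization, 29 with a pseudocount of 0.1, 1 without mitochondrial genes (COL4A6, DU145 and PC3 minus the other lines, -0.67 against -0.45) and 1 without the second DU145 repeat. No pairing by repeat number was seen, as deviations of equal numbers had a mean correlation across genes of 0.00922 over 10 pairs of lines (-0.19 to 0.25). In DU145 and PC3 the sample titles also carry numbers that differ from the repeat numbers. The check therefore cannot tell whether cultures of different lines were paired in another way. With the repeat number as a block, 26, 23, 15 and 5 members were called in the 4 contrasts, 27 by the F test, 43 pathway genes and 34 neighbours in level. The depth of each sample is not given here, which limits statements about members under 1 TPM.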
